A study of Mus musculus with 3 samples.

Results

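The cytosolic ribosomal protein genes encode the proteins that, together with ribosomal RNA, make up the large and small subunits of the cytoplasmic ribosome. Members were all genes with a transcript of class protein coding and a symbol of the form Rpl or Rps plus a number, Rplp0 to Rplp2, or Rpsa. This gave 84 of 55536 annotated genes. Of these, 7 have names ending in l or l1 and are copies of another member, here called paralogs and parents. The other 77 comprise 46 large subunit genes and 31 small subunit genes. The members lie on 19 chromosomes, with 14 on chromosome 7, and 32 are annotated as hosts of a small noncoding RNA.

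The libraries are ribosomal-RNA-depleted total RNA from the cytosolic fraction of C57BL/6J bone-marrow-derived macrophages, primary cells of a single treatment group. Cells received Lipid A, the membrane anchor of bacterial lipopolysaccharide, at 100 ng/ml for 12 h, were kept without it for 12 h, and were given 100 ng/ml again for 10 min. There are 3 libraries, labelled biological replicates 1, 2 and 3, all under the same donor identifier, with sex and age not recorded. Since the labels do not say whether they are separate cultures or animals, the spread given below is the spread between these libraries. No untreated or nuclear library entered, so every result is a level, a difference between genes within a library, or a difference between libraries of 1 group. The libraries hold 32108408, 53165872 and 57117456 expected counts (replicates 1, 2 and 3). All 8 macrophage markers reached at least 10 TPM, a transcript level scaled by length and library total, in every library. Among markers of other cell types, Cd3e and Trac (T cells), Ly6g and Retnlg (neutrophils) and Hbb-bs (red cells) were listed at 0 TPM, and the highest was neutrophil S100a8 at 2.29 to 4.18 TPM. The 3 nuclear transcripts examined were highest in replicate 1, by unequal factors: Malat1 stood at 1333, 118 and 152 TPM in replicates 1, 2 and 3, Neat1 at 66.0, 13.9 and 17.6 TPM, and Xist, the X-inactivation transcript of female cells, at 32.6, 0.42 and 0.35 TPM. What sets replicate 1 apart was not tested.

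A ribosome contains a single copy of nearly all of its proteins, while the acidic stalk proteins are present as dimers. The mRNAs are typically short, and many begin with a C followed by an unbroken run of pyrimidines (C or T), the terminal oligopyrimidine tract, through which mTOR and the RNA-binding protein Larp1 control their translation. In macrophages, Lipid A acts through the receptor TLR4 and changes translation as well as transcription. Mammalian genomes hold many processed pseudogenes of these genes, intronless copies made from their mRNAs, which complicates the assignment of reads.

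Sequences at the annotated starts were read from RefSeq promoter windows (GRCm38.p6, 250 bases before to 50 bases after the start), where 64 of the 84 members matched with 76 entries. The windows below show the tract, from 20 bases before the start to 10 bases from it, for the 6 members of highest TPM whose start is a C followed by at least 4 C or T. Capitals mark the pyrimidine run from the start base on.
Rps27 (chr3:90213639-90213668, minus strand): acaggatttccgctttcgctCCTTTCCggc
Rpl38 (chr11:114668560-114668589, plus strand): ccggaagcggaagcctcgttCTTTCCCCgt
Rps21 (chr2:180257359-180257388, plus strand): gcacttaccgaggacccgccCTCCTgccca
Rps10 (chr17:27635235-27635264, minus strand): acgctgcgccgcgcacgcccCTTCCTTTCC
Rpl15 (chr14:18270977-18271006, minus strand): ggattgtgggagaaagccttCTTCCTTTCC
Rplp2 (chr7:141447631-141447660, plus strand): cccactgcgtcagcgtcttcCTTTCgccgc

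Such a start was present in 13 members, 17.1% of member windows, against 2.51% of all 32851 windows. A run of at least 8 C or T within 20 bases either side of the start occurred in 40.8% of member windows, against 16.0% of all windows. Searched on both strands over the whole window, CCGGAAG, the core letters bound by ETS factors, was in 35.5% of member windows and 8.86% of all windows. AAGATGGC, the core of the YY1 motif, was in 10.5% (8 windows of 6 members) and 2.75%. CACGTG was in 10.5% and 7.15%. GGGCGG, the core of the Sp1 motif, was in 60.5% and 35.7%. TATAAA was in 9.21% and 13.6%. The 13 members with a pyrimidine start had a median of 189 TPM, and the 44 other matched members had 162 TPM with the paralogs left out, or 141 TPM with all 7 included. The 13 include 0 paralogs. These counts describe letters at annotated starts, which may differ from the starts used in these cells.

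The 84 genes held 4.78%, 6.23% and 5.35% of the TPM of nuclear-encoded protein-coding genes in replicates 1, 2 and 3. Counted as fragments and not per length, they held only 1.16%, 1.62% and 1.35% of those genes' expected counts. In bulk RNA of this kind, fewer expressing cells and less RNA per cell cannot be told apart. The median member stood at 171, 183 and 163 TPM, a mean of 172 ± 10.5 (SD, n = 3 libraries). By the second deposited set of transcript tables the median was lower and less even, at 103, 61.7 and 43.4 TPM (69.4 ± 30.5). The 9417 nuclear protein-coding genes of at least 1 TPM in the mean had a median of 8.21 ± 0.995 TPM. All 77 members other than the paralogs reached 10 TPM in every library, 60 reached 100 TPM and 3 reached 500 TPM. Ranked among 22015 nuclear protein-coding genes by mean TPM, 33 members were in the top 200 and 67 in the top 500.

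The highest gene of the large subunit was Rpl41 (chr10:128548114-128549305, minus strand), which encodes a very short, strongly basic peptide. Its whole coding sequence, shown because it is the shortest of the members and leads them in TPM, reads as follows without the stop codon (GENCODE M21).
Rpl41: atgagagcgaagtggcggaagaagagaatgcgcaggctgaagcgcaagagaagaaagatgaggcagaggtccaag
Rpl41 had 711.5, 923 and 718 TPM in replicates 1, 2 and 3. Rps24 (chr14:24487125-24496959, plus strand), a small subunit gene mutated in human Diamond-Blackfan anaemia, had 802, 696 and 607 TPM. Rps29, a zinc-binding protein of the small subunit head, had 714, 639 and 546 TPM. The order of these 3 genes was not the same in every library: Rpl41 led in replicates 2 and 3, and Rps24 in replicate 1. With near-identical copies added, Rpl41 led in every library, at 1091, 1269 and 1105 TPM. Rps24 then had 806, 700 and 609 TPM and Rps29 had 815, 639 and 546 TPM. Rplp1, an acidic stalk protein, followed with 517, 494 and 442 TPM. Rps27, another zinc-binding small subunit protein, had 512, 411 and 368 TPM. Rpl19, a large subunit protein near the peptide exit tunnel, had 373, 420 and 354 TPM. The ranges of Rplp1 and Rps27 overlapped, though Rplp1 was the higher in each library. Rps27 stood above Rpl19 in replicates 1 and 3 and below it in replicate 2.

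At the other end stood Rpl5 (chr5:107900502-107909005, plus strand), which binds the smallest ribosomal RNA together with Rpl11 and, in its free form, the p53 regulator Mdm2. Rpl5 had 17.8, 16.9 and 11.8 TPM, below every other member except 3 paralogs. Its partner Rpl11 had 134, 152 and 133 TPM. Next came Rpl37 with 59.0, 54.7 and 43.3 TPM, and Rps3, which lines the mRNA entry channel and is also known for binding NF-kB subunit p65, with 53.2, 60.4 and 51.4 TPM. Rpl36a, near the tRNA exit site, had 61.8, 60.4 and 54.7 TPM. Rpl27 had 78.8, 66.2 and 62.7 TPM, but 189, 199 and 186 TPM with its near-identical copies added. Rpl10a, the protein of the mobile stalk next to the tRNA exit site, had 71.1, 94.2 and 73.2 TPM. Before copies were added, Rpl5 lay below these 5 genes in all 3 libraries. Rpl36a lay above Rpl37 in each library, and the range of Rps3 overlapped those of both.

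**Figure D1:**
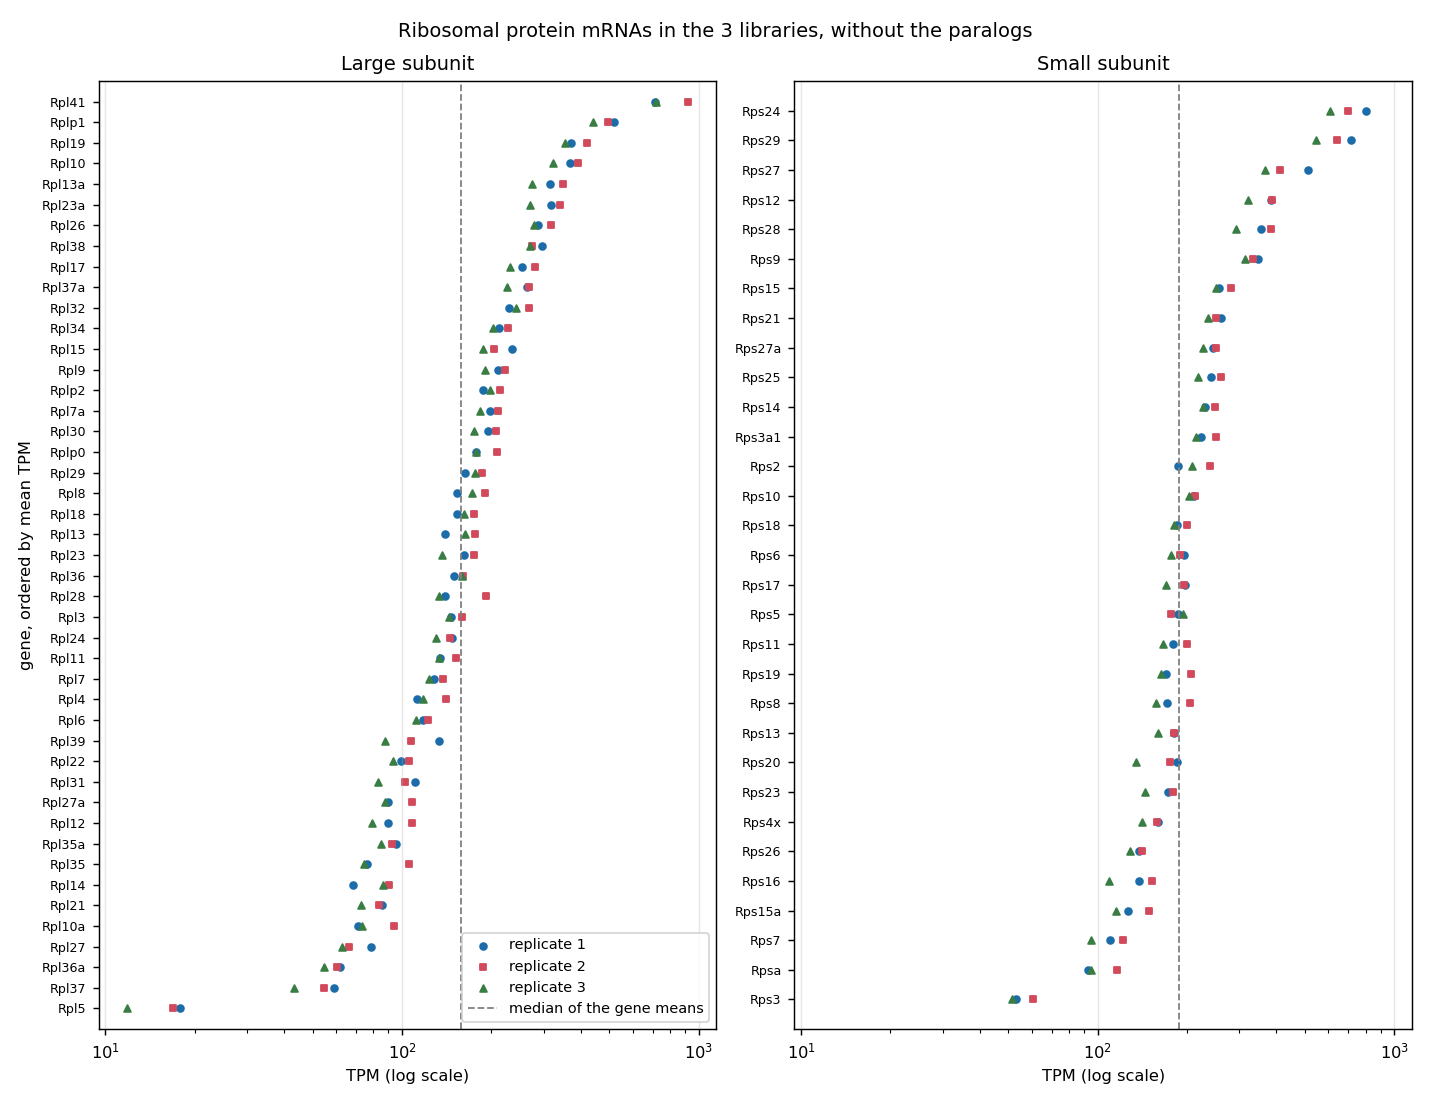
TPM (log axis) of members other than the paralogs in each library, with large subunit genes on the left and small subunit genes on the right, ordered by mean TPM. Points are single libraries, the dashed line is the median of the gene means of the subunit, and Rpl5 lies apart at the lower left at 11.8 to 17.8 TPM.

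The members were close to one another in level compared with expressed genes in general. The SD of log2(TPM + 1) over the 77 genes was 0.90, 0.88 and 0.90 in replicates 1, 2 and 3, against 1.69, 1.64 and 1.65 over the 9417 expressed protein-coding genes. The 78 mitochondrial ribosomal protein genes had an SD of 0.86, 0.84 and 0.86 at a median of 12.4 ± 0.191 TPM. The 61 translation initiation and elongation factor genes were more spread (2.02, 2.00 and 1.97) at a median of 22.0 ± 3.03 TPM. These 2 lists were taken by name, with no filter on level, whereas the 77 members leave out the paralogs. With the paralogs included, the SD over the members had a mean of 1.66. Within the members, the middle of the distribution ran from a 25th percentile of 128 ± 12.6 TPM to a 75th percentile of 244 ± 17.0 TPM (SD, n = 3). The 10 highest genes held 30.2% ± 1.12 of the TPM of the 77. Without Rpl5 the SD over genes had a mean of 0.81 in place of 0.89.

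The order of the genes was nearly the same from library to library, with Spearman's rho of 0.98 for each pair of libraries (n = 77 genes, which are not independent replicates). Short mRNAs stood higher: the 19 shortest genes had a median of 256 ± 13.7 TPM and the 20 longest 128 ± 10.1 TPM. Before division by length the order was the other way round in each library. Median expected counts in replicates 1, 2 and 3 were 2712, 5991 and 5016 in the 19 shortest. In the 20 longest they were 5397, 11843 and 11575. These counts are not adjusted for library totals. Spearman's rho between TPM and length was -0.53, -0.48 and -0.49, and both measures share the length. Members that host a small noncoding RNA had a median of 177 ± 14.5 TPM (32 genes), and the 45 members that do not had 182 ± 8.41 TPM, a difference smaller than the spread between libraries.

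Large subunit genes had a lower median than small subunit genes in each library. The medians were 152, 175 and 161 TPM for the large subunit and 187, 204 and 181 TPM for the small subunit in replicates 1, 2 and 3. On the log2(TPM + 1) scale the difference, large minus small, was -0.30, -0.22 and -0.17, with a mean of -0.23 ± 0.066 (SD, n = 3). The exact two-sided sign-flip permutation test gave p = 0.25, the smallest value that 3 libraries allow. Median expected counts were nearer to each other, at 3697, 8603 and 8129 for the large subunit and 3793, 8739 and 8257 for the small subunit. The median annotated length was 745 ± 1.36 bases for the large subunit and 661 ± 7.07 bases for the small subunit. The difference kept its sign but was smaller with expected counts divided by the annotated length (-0.12 ± 0.069) and with the TPM of near-identical gene copies added (-0.13 ± 0.046).

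Genes with a shared place in the ribosome differed in TPM, in some cases by where reads shared with copies were placed. In the stalk that recruits elongation factors, Rplp1 at 484 ± 38.5 TPM stood above Rplp2 and Rplp0. Rplp2 (188, 214 and 198 TPM) lay above Rplp0 (178, 210 and 178 TPM) in each library, though their ranges overlapped. Rpl12, at the base of the stalk, had 90.0, 108 and 79.2 TPM. Of the 7 exit tunnel genes, 4 reached 100 TPM in every library, with means from 85.5 TPM for Rpl35 to 382 TPM for Rpl19. With near-identical copies added, 6 did so: Rpl35 then had 221, 249.6 and 223 TPM and Rpl31 191, 201 and 175 TPM. Among genes at the mRNA entry and exit channels, Rps28 averaged 344 ± 47.4 TPM and Rps2 211 ± 26.2 TPM, while Rps3 averaged 55.0 ± 4.80 TPM. At the decoding site, Rps15 averaged 263 ± 16.2 TPM and Rps23 165 ± 18.9 TPM. With copies added, Rps23 had 239, 262 and 234 TPM and Rps15 had 256, 282 and 251 TPM. The gap was then smaller and the ranges overlapped, but Rps15 was the higher in each library. Rps6, the target of the S6 kinases, had 195, 190 and 177 TPM. Rpl13a, a member of the interferon-gamma-activated translation inhibitor complex in human monocytic cells, had 315, 350 and 274 TPM.

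Of the 7 paralogs, 1 stood above its parent, 3 were expressed at a fraction of it, and 3 were near or at 0. Rpl36al (chr12:69182731-69184083) had 90.8, 92.6 and 79.8 TPM in replicates 1, 2 and 3, and its parent Rpl36a (chrX:134585654-134588062) had 61.8, 60.4 and 54.7 TPM. The ranges do not overlap, and the paralog held 59.8% ± 0.649 of the TPM of the pair. The difference, paralog minus parent on the log2(TPM + 1) scale, was 0.56 ± 0.039 (SD, n = 3; exact sign-flip permutation p = 0.25, the smallest possible). Rpl36a was given 704, 1497 and 1366 expected counts, and a processed pseudogene identical to it over the coding sequence, Rpl36a-ps2, a further 111, 370 and 303. With the TPM of near-identical copies added to both genes the difference was -0.037 ± 0.099, within the spread between libraries. The pair then stood at 92.1, 93.6 and 80.7 TPM for Rpl36al and 87.8, 97.0 and 88.2 TPM for Rpl36a, with the paralog higher in replicate 1 alone, so these sums give no order of the pair. The 2 coding sequences have the same length and differ at 39 of 318 letters, 35 of them at the last base of a codon. Letters 1 to 180 are shown with the 30 that differ there in capitals. Such letters help to separate the reads of the pair. The main transcripts, of 526 bases for Rpl36al and 483 for Rpl36a, also hold untranslated bases that are not shown.
Rpl36al: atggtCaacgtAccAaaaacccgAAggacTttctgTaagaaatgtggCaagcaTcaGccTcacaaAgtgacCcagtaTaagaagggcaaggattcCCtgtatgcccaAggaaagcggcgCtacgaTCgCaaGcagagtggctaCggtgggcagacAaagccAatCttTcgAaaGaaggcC
Rpl36a: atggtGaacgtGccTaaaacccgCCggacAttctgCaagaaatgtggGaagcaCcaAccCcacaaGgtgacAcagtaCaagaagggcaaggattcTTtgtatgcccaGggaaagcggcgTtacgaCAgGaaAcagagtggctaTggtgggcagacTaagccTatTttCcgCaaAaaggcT

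Rps27l (chr9:66946086-66949516), a target of p53 in human and mouse cells, had 79.7, 75.1 and 70.8 TPM, and Rps27 (chr3:90212522-90213651) had 512, 411 and 368 TPM. The paralog thus held 13.5%, 15.5% and 16.1% of the pair. In expected counts the gap was narrower, with 979, 2007 and 1936 for Rps27l and 2712, 5026 and 4159 for Rps27. The main Rps27 transcript has 345 bases, within the 250 to 400 base range of the inserts, and its effective length was 115, 131 and 109 bases. Paralog minus parent was -2.49 ± 0.16 on the log2(TPM + 1) scale and -1.84 with counts divided by the annotated length. Their coding sequences differ at 60 of 252 letters, 53 of them at the last base of a codon, again in capitals.
Rps27l: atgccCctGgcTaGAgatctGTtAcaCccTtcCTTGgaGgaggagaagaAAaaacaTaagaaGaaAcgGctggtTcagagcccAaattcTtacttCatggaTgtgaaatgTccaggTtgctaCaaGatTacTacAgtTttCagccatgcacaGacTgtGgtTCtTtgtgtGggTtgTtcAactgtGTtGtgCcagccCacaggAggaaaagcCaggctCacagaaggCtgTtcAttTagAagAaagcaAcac
Rps27: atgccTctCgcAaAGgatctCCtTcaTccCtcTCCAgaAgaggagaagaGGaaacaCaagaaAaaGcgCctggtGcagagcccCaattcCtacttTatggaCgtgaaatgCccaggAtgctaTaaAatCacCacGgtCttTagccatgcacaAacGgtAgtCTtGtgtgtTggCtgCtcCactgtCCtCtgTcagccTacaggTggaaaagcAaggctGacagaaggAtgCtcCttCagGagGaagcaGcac

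Rpl22l1, which in mouse is known to rise when its RNA-binding parent is lost, had 30.3, 24.6 and 19.1 TPM, and Rpl22 had 99.0, 106 and 93.2 TPM. It held 19.8% ± 3.33 of the pair, with the highest share in replicate 1 (23.4%). Rpl7l1 had 24.3, 21.4 and 19.8 TPM and Rpl7 had 129, 138 and 123 TPM, so that the paralog held 14.4% ± 1.31. Both paralogs lay below their parents in 3 of 3 libraries, with differences of -1.99 ± 0.29 and -2.52 ± 0.15 on the log2(TPM + 1) scale.

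The remaining 3 paralogs are known for expression in other tissues. Rpl39l, a testis gene, had 10, 14 and 20 expected counts (0.38, 0.26 and 0.34 TPM), and its exit tunnel parent Rpl39 had 133, 107 and 87.6 TPM. Rpl3l, a gene of heart and skeletal muscle, had 3, 1 and 0 expected counts, and Rpl3 had 147, 160 and 144 TPM. Rpl10l, an autosomal gene of male germ cells, had no read assigned (0 counts in replicates 1, 2 and 3), a result that leaves room for 0.0831, 0.0400 and 0.0371 TPM, the TPM of 3 counts. Against that limit, and by these tables alone, it was at least 4433-fold lower than X-linked Rpl10, at 368, 391 and 324 TPM. By the second set of tables Rpl10 had only 54.4, 28.5 and 16.9 TPM. Paralog minus parent on the log2(TPM + 1) scale was then -4.95 ± 0.82, in place of -8.50 ± 0.14.

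**Figure D2:**
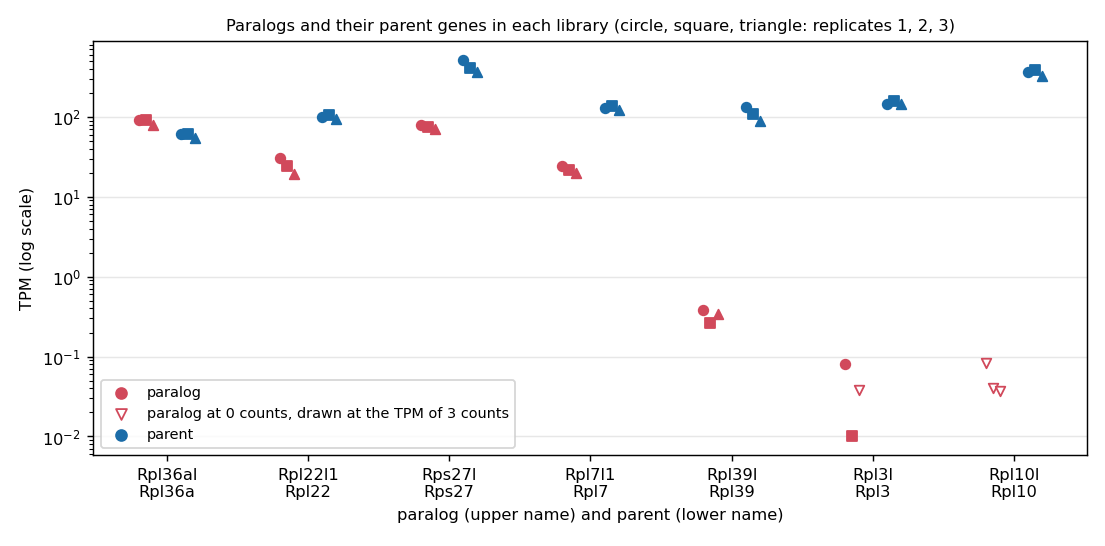
TPM (log axis) of each paralog (red, left) and its parent (blue, right) in the 3 libraries, ordered by the paralog's share of the pair. Open triangles stand at the TPM of 3 counts for libraries with 0 counts, and Rpl36al is the paralog above its parent.

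For most members some reads also match other places in the genome. A search of each leading coding sequence against all annotated transcripts (at least 95% identity over at least 80% of the letters) found a copy outside the members for 77 of the 84 genes, with a median of 4.5 pseudogene copies per member and the most, 56, for Rpl21. Fractional expected counts, the trace of reads divided among places, occurred in 71 members. All counts of a gene with a matching transcript were taken as counts of a copy. This includes longer protein-coding genes such as Uimc1, Ciapin1, Med21 and Wdr89. Together the 580 copies held 5.03%, 4.70% and 5.25% of the expected counts of members plus copies in replicates 1, 2 and 3. In the second set of transcript tables, which holds estimated counts for the same libraries, they held 9.51%, 9.44% and 9.07%.

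For Rpl5, most counts were placed in a copy by both sets of tables. Rpl5 was given 1182, 2755 and 2072 expected counts, and Gm15500 (chr7:114705217-114706235), a transcribed processed pseudogene identical to Rpl5 over the whole coding sequence, 3353, 7369 and 7374. Copies thus held 73.9%, 72.8% and 78.1% of the total. Gene and copies together came to 111, 116 and 103 TPM, below Rpl11 in each library. Rpl11 had 134, 152 and 133 TPM alone, and 142, 161 and 144 TPM with its own copies added. Other members were divided differently by the 2 sets. For Rps12, copies held 3.77%, 2.16% and 3.39% of the expected counts but 95.5%, 96.2% and 95.6% of the estimated counts, nearly all in Rps12-ps3. Rpl12 had 18.7%, 13.2% and 17.2% in copies by expected counts and 97.2%, 97.2% and 97.3% by estimated counts, led by Gm10275. For Rpl10 the shares were 4.81%, 4.21% and 5.59%, and 77.6%, 78.9% and 81.2%, led by Rpl10-ps3. Rpl41 went the other way, with 26.5%, 21.1% and 26.7% in copies by expected counts, nearly all in the noncoding gene Gm10076, and 0.15%, 0.10% and 0.094% by estimated counts. Other members had similar shares in both sets: copies held 39.3%, 49.2% and 47.0% of the expected counts for Rpl27 and 36.6%, 33.4% and 38.1% for Rpl35, there mainly in Gm2000. Adding copies raised the TPM by over 1.5 times in every library for 6 members, Rpl5, Rpl21, Rpl27, Rpl27a, Rpl31 and Rpl35, and in at least 1 library for 10, with Rpl12, Rpl36a, Rpl41 and Rps23. As levels of single genes, those of these 10 and of Rps12 and Rpl10 are uncertain. For Rpl21, most of the added TPM was that of the protein-coding gene BC004004, counted whole. It gave 39.6, 33.3 and 35.4 of the 49.8, 42.8 and 41.8 TPM added in replicates 1, 2 and 3.

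**Figure D3:**
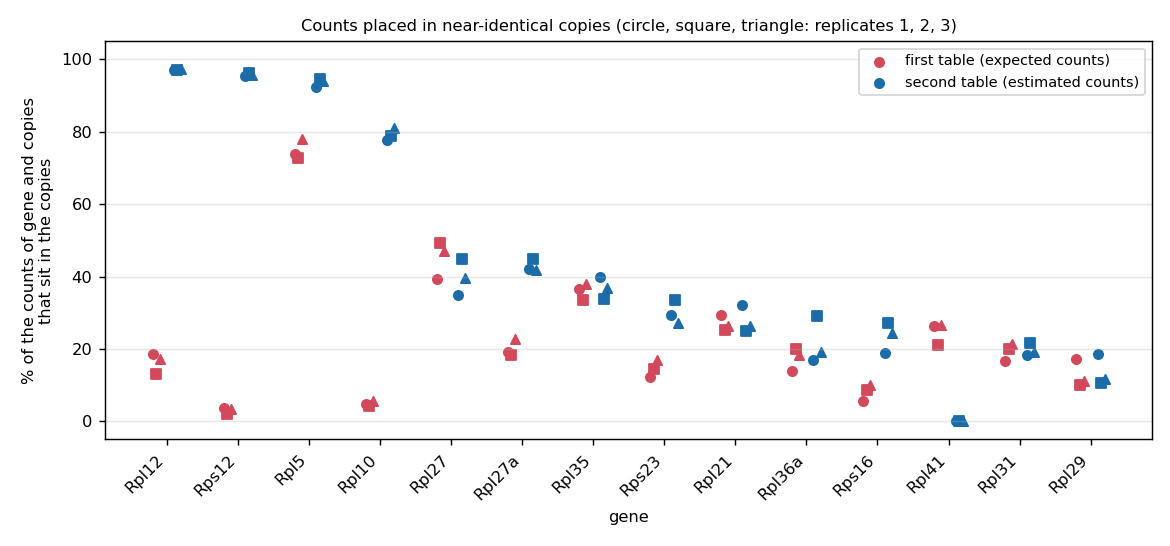
Share of the counts of a gene and its near-identical copies that was placed in the copies (%), for the 14 members of highest share, by the expected counts (red) and the estimated counts (blue), 1 point per library. Rpl12, Rps12 and Rpl10 stand at 77.6% to 97.3% by the estimated counts, against 2.16% to 18.7% by the expected counts.

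Nearly all member TPM lay in transcripts classed as protein coding. Other classes held 7.06%, 7.25% and 5.87% in replicates 1, 2 and 3, with a mean of 6.73% ± 0.748 (SD, n = 3), against 7.42% ± 1.16 over all nuclear protein-coding genes. Retained-intron models held 3.53% ± 0.580, nonsense-mediated-decay models 2.41% ± 0.110 and processed transcripts 0.789% ± 0.119. The median member had 0.455% outside the coding class, and 50 of the 81 members of at least 1 TPM were under 1%. The retained-intron share was highest in replicate 1 for 50 of the 63 members with any (79.4%), against 85.9% of the 5644 nuclear protein-coding genes of at least 1 TPM with any. Summed over members, it was 3.87%, 3.86% and 2.86% in replicates 1, 2 and 3, against 4.58%, 3.00% and 2.87% over all nuclear protein-coding genes. Replicate 1 also has the most Malat1, and the part of nuclear RNA in these shares was not tested.

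The total came from few genes. Rps20, a small subunit head protein, had 92.3%, 91.5% and 90.8% of its TPM in a retained-intron model of 582 bases, whereas its single coding model is 3706 bases long. Its expected counts were nearly balanced, with 2681, 5415 and 4292 in Rps20-201 and 2274, 4864 and 4488 in the coding Rps20-203, so the TPM share rests on the difference in annotated length. Rps16 had 87.0% ± 0.970 in retained-intron models, and its coding model is 1109 bases long. Rpl13a, host of several small nucleolar RNAs, had 66.5%, 54.8% and 52.0% outside the coding class, in retained-intron and decay models. Rpsa, the laminin receptor protein of the small subunit, had 59.1%, 54.3% and 53.3% in decay models. In Rps23, a processed transcript held 55.3%, 50.5% and 43.8%.

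**Figure D4:**
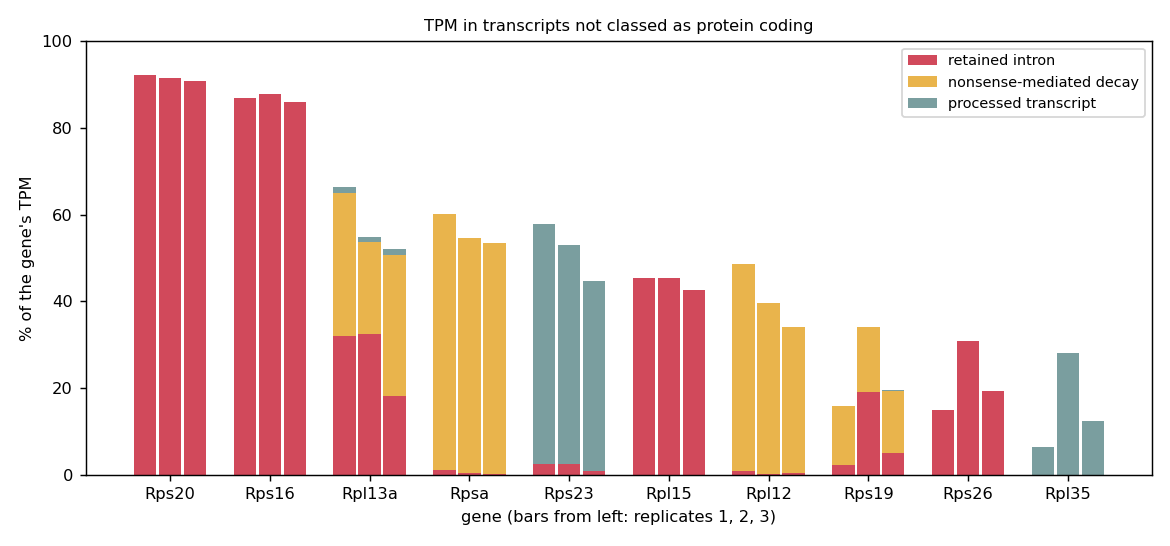
Share of a gene's TPM (%) in transcripts classed as retained intron, nonsense-mediated decay or processed transcript, for 10 members of high share, with 1 bar per library (replicates 1, 2 and 3 from the left). Rps20 and Rps16 stand near 90% in retained-intron models in every library.

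Rps24, known for tissue-specific splicing of its last exons, was divided between coding models. Rps24-201 of 468 bases held 76.4%, 71.5% and 72.6% of its TPM, and Rps24-210 of 1613 bases held 19.3%, 22.7% and 21.7%. By expected counts the longer model led, with 9807, 20609 and 18747 against 6477, 11562 and 10264.

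Between the libraries the members moved together. On the log2 CPM scale, counts relative to library totals adjusted by TMM factors, each library was set against the mean of the other two. The median over the 82 members that passed the low-count filter (all but Rpl3l and Rpl10l) was -0.25 in replicate 1, 0.32 in replicate 2 and -0.04 in replicate 3, and the medians over all 12515 genes tested were -0.01, 0.01 and -0.01. In replicate 2, 81 of the 82 lay above 0, Rpl39l being the exception, against 51.3% of all genes. In replicate 1, 5 of the 82 lay above 0, against 48.9% of all genes. Large and small subunit members moved alike, with medians of -0.29 and -0.21 in replicate 1 and of 0.33 and 0.30 in replicate 2.

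Few members shifted by over 0.5. In replicate 2, 5 of the 82 members were higher by over 0.5, against 6.19% of all genes, and 0 were lower by over 0.5, against 8.63%. In replicate 1, 6 of the 82 members were lower by over 0.5, against 7.55% of all genes, and 0 were higher, against 13.3%. The counts of 5 and 6 are near the shares of all genes. None passed 0.5 in replicate 3, where 2.29% of all genes were higher and 7.38% lower by that much. Rpl41 (0.57), Rpl28 (0.55), Rps28 (0.53) and Rpl10a (0.51) were furthest up in replicate 2, and Rpl13 (-0.55), Rps2 (-0.53), Rpl28 (-0.53) and Rpl8 (-0.52) furthest down in replicate 1. Rpl22l1, at 0.23, 0.22 and -0.45 in replicates 1, 2 and 3, was 1 of the 5 members above 0 in replicate 1, as were Rpl39 (0.17, 0.17 and -0.34) and Rps27 (0.085, 0.24 and -0.33). On the TPM scale the member medians were 171, 183 and 163 TPM, so replicate 1 was not the lowest. Nuclear protein-coding genes, however, held 34.3%, 27.8% and 27.8% of all TPM in replicates 1, 2 and 3. As a share of the TPM of those genes, the members were lowest in replicate 1, at 4.78%, 6.23% and 5.35%. Replicate 1 is also the shallowest library and the one with the most Malat1, and the part of either in the shift was not tested.

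**Figure D5:**
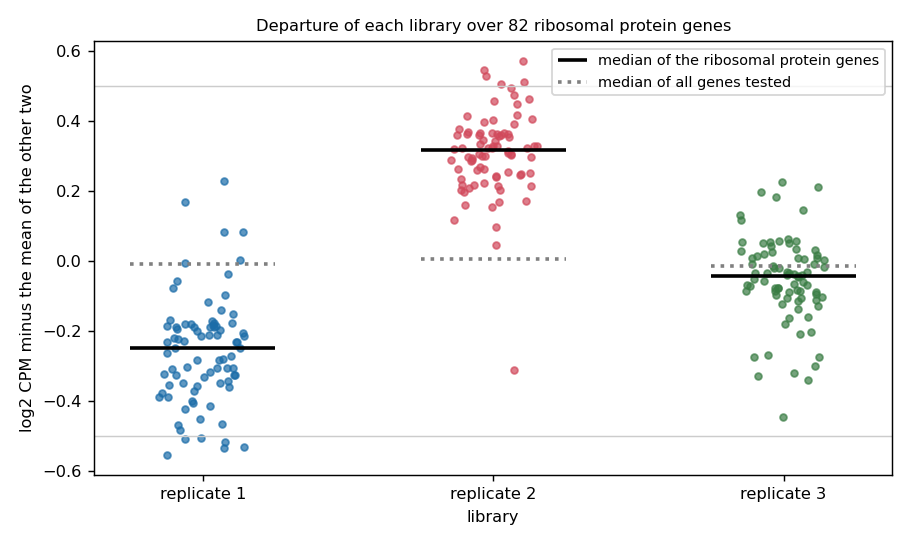
Departure of each library from the mean of the other two in log2 CPM, with 1 point per member (82 genes), a black line at the member median and a dotted line at the median of all 12515 genes tested. Members lie mostly below 0 in replicate 1 and above 0 in replicate 2.

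The differences were larger than counting error. By a chi-square test of each gene's counts against a single rate per library, 81 of 82 members varied at a Benjamini-Hochberg adjusted p of 0.05, against 71.4% of all genes tested. Rpl39l did not pass (adjusted p = 0.742). Of the 1218 other genes within the interquartile range of the members' levels, 94.5% varied. The biological coefficient of variation from edgeR, the spread between libraries beyond counting error, had a median of 0.153 over the members, 0.172 over all genes tested and 0.134 over those 1218 genes. It was smallest for Rpl27 (0.117), Rpl7l1 (0.124), Rps15a (0.124), Rpl35a (0.129) and Rps26 (0.130). It was largest for Rpl39l (0.325), Rpl41 (0.204), Rpl28 (0.195), Rps2 (0.192) and Rpsa (0.190). For Rpl39l the value is an estimate from 10, 14 and 20 expected counts, which did not vary beyond counting error by the chi-square test. Without replicate 1 the median was 0.101 over the members and 0.105 over all genes tested.

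Other genes of the ribosome and its assembly were set beside the members. Fau, whose ubiquitin-like fusion is cleaved to the small subunit protein eS30, averaged 411 ± 41.0 TPM, and Rps27a, which encodes a small subunit protein fused to ubiquitin, averaged 241 ± 12.9 TPM. Rack1, a scaffold protein on the small subunit, had 85.6, 91.9 and 81.1 TPM. The 23 ribosome biogenesis genes were far lower, with a median of 5.34 TPM, 22 at or above 1 TPM in every library and 8 at or above 10 TPM. They were led by the nucleolar proteins Npm1 (67.6 ± 7.40 TPM) and Ncl (38.3 ± 3.22 TPM), while the RNA polymerase I subunit gene Polr1b had 0.97, 1.24 and 1.11 TPM. Of 11 other mRNAs with an oligopyrimidine start or its regulators, all reached 10 TPM in every library and 5 reached 100 TPM. Elongation factor Eef1a1 averaged 906 ± 108 TPM and Tpt1 644 ± 134 TPM, both in the range of the highest members, and Larp1 averaged 28.2 ± 5.27 TPM.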

How the data were processed

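Per the labels, total RNA depleted of ribosomal RNA (1 µg, inserts of 250 to 400 bases) was sequenced from 3 libraries of 1 group. The deposited gene and transcript tables hold expected counts and TPM with the column names RSEM writes, and a second deposited transcript table holds estimated counts and TPM with the column names kallisto writes. The build is mm10 with GENCODE M21, per the notes the authors deposited; no tool version or strand setting is given in the sources used here. The deposited credibility bounds, a signal in TPM units, were not used.

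Members were joined by gene ID. Levels are TPM; log values are log2(TPM + 1). Expected counts were rounded, filtered with filterByExpr and scaled by TMM (edgeR 4.0.16, R 4.3.3); spread came from an intercept-only fit, and the chi-square test was tested on simulated data. Entries without a gene (26345, 0.435% of counts or less) stayed out of the tests. Copies were found with BLAST 2.17.0. Named genes are the 6 highest and 6 lowest members, the paralogs with their parents, the stalk, the extremes of spread, departure and class share, and the role groups. Members and lists were chosen with earlier results of these data known. SDs measure the spread between these libraries, which may be technical. The chi-square p-values set the counts against counting error. The sign-flip p-values rest on the sign of the difference in each of the 3 libraries and stand at their smallest possible value. Counting floors cover counting error only. Alternatives were another quantification, pseudocounts, length scaling, filters, normalizations, leaving out a library, and, chosen after seeing the data, adding copies or leaving out Rpl5. Some items are not reported here by name; they stay in the counts, medians and tests.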

Additional observations from a re-analysis of the deposited data

How the results depend on the processing

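No analysis paired between groups was possible because the 3 libraries form a single group, so no replicate number is shared between groups. Differences between genes were taken within each library. Leaving out a library would leave a departure between the 2 others, which was not run. The median member was 69.4 ± 30.5 TPM by the second transcript tables and 186 TPM with near-identical copies added. The member share was 1.38% by expected counts. Large minus small was -0.12 with counts per annotated length, -0.38 with the paralogs and -0.13 with copies added. The SD over genes was 1.13 by the second tables, 0.86 with a pseudocount of 5, 0.79 with counts per annotated length, 1.66 with the paralogs, 0.76 with copies added and 0.81 without Rpl5. The share outside the coding class was 7.58% by the second tables. Rpl36al minus Rpl36a turned to -0.037 ± 0.099 with copies added and was 0.61 by the second tables. The departure of replicate 3 turned to 0.010 without the low-count filter, against -0.04 with it. Without a replicate, the member median ranged from 167 to 177 TPM, the share from 5.06% to 5.79%, large minus small from -0.26 to -0.19, the SD over genes from 0.89 to 0.90, the coding-class remainder from 6.46% to 7.15%, the varying members from 65 to 80 and their median coefficient of variation from 0.101 to 0.190. Without replicates 1, 2 and 3 in turn, 80, 65 and 78 members varied, against 40.4%, 58.2% and 61.5% of all genes tested, whose coefficient ranged from 0.105 to 0.220. Under every alternative run, 6 paralogs lay below their parents in all libraries. The cause of the moved values was not tested. Paralogs near 0 are limited by counts of 20 or fewer per library.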
